A study of Mus musculus with 7 samples.

Results

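The genes described here encode the subunits of the AMPA and kainate receptors, Gria1 to Gria4 and Grik1 to Grik5. They were taken by symbol, and each of the 9 symbols matched 1 of the 55416 Ensembl gene identifiers counted in the libraries. RNA-seq of hippocampus was performed on male mice of the outbred CD1 stock in 7 libraries. Control mice received no injection (replicates 1 to 3), DMSO-treated mice received the vehicle (replicates 2 and 3), and ONX-0914-treated mice received 10 mg/kg of ONX-0914, an inhibitor of the non-constitutive proteasome (replicates 1 and 2). Both kinds of injection were intraperitoneal and were given 2 times per week for 2 months. The mice were age-matched with no age stated, carried no transgene or deletion that the labels name, and were sampled as whole tissue. Nothing in the labels says which animals the libraries came from, so the p-values measure only the spread between these libraries.

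AMPA receptors are tetramers of the subunits GluA1 to GluA4 (genes Gria1 to Gria4) that carry most of the fast current at excitatory synapses of the brain. Their number and composition in the postsynaptic membrane change during long-term potentiation, and in hippocampal pyramidal cells most of them combine GluA1 with GluA2. Kainate receptors are tetramers of GluK1 to GluK5 (Grik1 to Grik5), in which GluK1, GluK2 and GluK3 can form channels by themselves while GluK4 and GluK5 need a partner among them, and they act on both sides of the synapse, including that of mossy fibres on CA3 cells.

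The pore-lining stretch of the subunits holds a glutamine codon, the Q/R site, which the enzyme ADAR2 (gene Adarb1) converts to an arginine codon in the RNA of Gria2, Grik1 and Grik2. Editing of Gria2 makes receptors that contain it nearly impermeable to calcium. The spliced coding sequence of the reference around this codon is shown for these 3 genes and for the 3 other subunits whose libraries separated between ONX-0914-treated and control mice, 5′ to 3′ on the coding strand, with the glutamine codon in capitals.
Gria2: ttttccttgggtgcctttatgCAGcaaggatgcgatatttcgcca
Grik1: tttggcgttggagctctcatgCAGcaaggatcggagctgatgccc
Grik2: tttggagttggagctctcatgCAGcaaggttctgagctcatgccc
Gria1: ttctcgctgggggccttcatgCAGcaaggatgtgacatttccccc
Gria4: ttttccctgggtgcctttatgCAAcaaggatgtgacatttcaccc
Grik4: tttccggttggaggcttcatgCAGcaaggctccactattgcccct
In the GENCODE M21 annotation of build GRCm38, the codon lay in coding exons at chr3:80706911-80706913 in Gria2 (minus strand, exon 11 of 16), at chr16:87940542-87940544 in Grik1 (minus strand, exon 13 of 18) and at chr10:49244329-49244331 in Grik2 (minus strand, exon 13 of 17). It lay at chr11:57243094-57243096 in Gria1 (plus strand, exon 11 of 16), at chr9:4464137-4464139 in Gria4 (minus strand, exon 12 of 17) and at chr9:42547623-42547625 in Grik4 (minus strand, exon 16 of 21). The codon was CAG in 8 of the 9 genes and CAA in Gria4. The 45 bases shown lie in 1 exon, except in Grik1 and Grik2, where they span 2. Over them, Gria1 and Gria2 had the same base at 36 positions, Grik1 and Grik2 at 41, and Gria2 and Grik2 at 27. The deposited values are counts per gene, so they do not show whether a transcript was edited.

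Each library held 2842675 to 3877006 reads counted on genes, except ONX-0914 replicate 2 with 13782270. The ONX-0914 libraries stood apart from the others and from each other. Levels below are counts scaled to library size (CPM), and lists of cell type and region markers are given as their summed CPM. The defining markers of hippocampal subfields were present in all libraries, but in ONX-0914 replicate 1 the sums were low, at 222 for CA1 against 610 to 684 in control, 137 for CA3 against 278 to 298 and 179 for the dentate gyrus against 460 to 581, and the excitatory neuron list was at 3145 against 10009 to 11248. The same library had high sums of thalamus and midbrain markers, at 1458 against 148 to 183, and of striatum markers, at 1418 against 244 to 274. All 14 and all 12 genes of these lists were above the control libraries there. Its blood sum was 96.0 against 29.9 to 39.9 in control, with 4 of 5 genes above the control libraries. Its pan-neuronal sum was 10315 against 10765 to 11813, with 5 of 10 genes below the control libraries and 3 above. In ONX-0914 replicate 2, the CA1 sum was 715, CA3 293, dentate gyrus 477, excitatory neurons 8954, thalamus and midbrain 145 and striatum 211, while the pan-neuronal sum was 7385 against 10765 to 11813 in control and the blood sum was 833 against 29.9 to 39.9. In replicate 2, 9 of 10 pan-neuronal genes were below all control libraries and 1 was above, and 4 of 5 blood genes were above. The genes of the CA1, CA3, dentate gyrus and excitatory neuron lists did not move together in this library. Below all control libraries there were 3 of 8 CA1 genes, 2 of 8 CA3 genes, 6 of 10 dentate gyrus genes and 4 of 7 excitatory neuron genes, and above them 4, 3, 3 and 3 of these lists, with Fibcd1 of CA1 at 68.4 CPM against 121 to 154 and Mpped1 of CA1 at 230.4 CPM against 109 to 124. In replicate 1, 7 of 8 CA1, 7 of 8 CA3, 9 of 10 dentate gyrus and 7 of 7 excitatory neuron genes were below control. No marker of the 16 lists was at 0 in all 7 libraries. Fewer cells of a type and less RNA per cell cannot be told apart in whole tissue.

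Gria1 and Gria2 were the most abundant subunit genes of the control hippocampus by length. Per kilobase of annotated exon, the level of Gria1 was 290.4 ± 13.8 CPM (SD, n = 3) and that of Gria2 59.2 ± 3.06. Grik5, the common kainate partner subunit, followed at 40.2 ± 0.692 CPM per kilobase. Gria3, the X-linked AMPA subunit, was at 14.6 ± 1.75 CPM per kilobase. The libraries of these 4 genes did not overlap between neighbours. Grik4 (10.3 ± 0.937), Grik3 (8.73 ± 2.69) and Gria4 (6.99 ± 0.309) followed in CPM per kilobase, with libraries that overlapped between Grik4 and Grik3 and between Grik3 and Gria4. Grik2 (3.68 ± 0.436) and Grik1 (2.06 ± 0.239) were lowest per kilobase and separated from their neighbours. In the ONX-0914-treated hippocampus Gria1 was still the most abundant, at 95.8 ± 19.9 CPM per kilobase (SD, n = 2), but Gria2 (28.7 ± 7.99) no longer separated from Grik5 (35.0 ± 13.2), and Gria4, Gria3 and Grik3 overlapped at 12.9, 12.7 and 11.1. The DMSO libraries gave the same order as control. In control, the order was also the same by the length of the longest coding transcript, by which the ratio of Gria1 to Gria2 was 3.57 in place of 4.91.

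**Figure D1:**
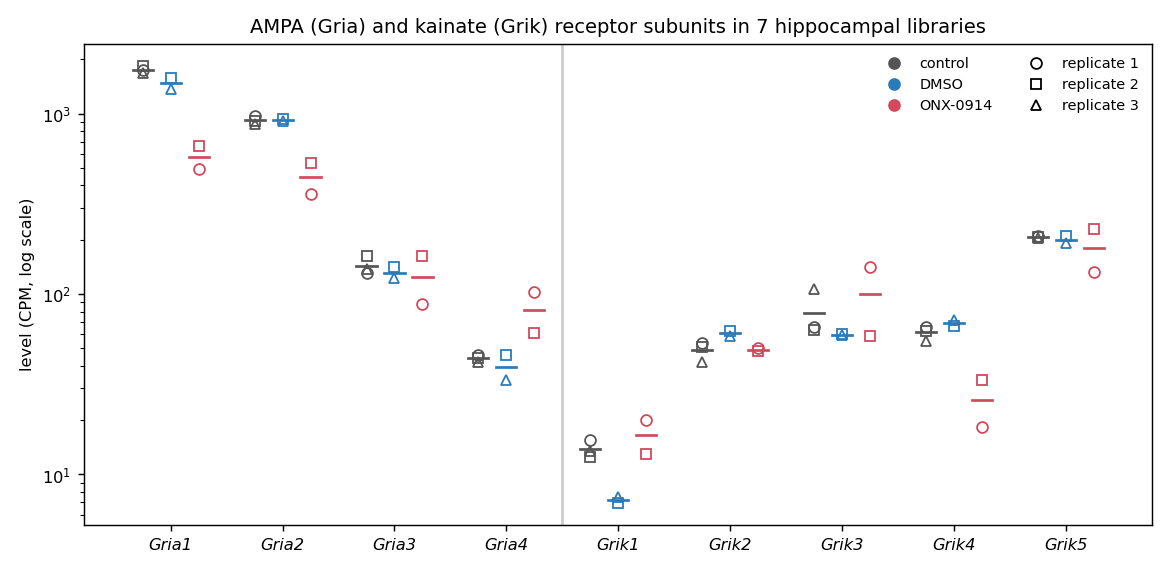
Level of each subunit gene in CPM on a log scale, with 1 point per library and a bar at the mean of each group (control, n = 3; DMSO, n = 2; ONX-0914, n = 2). Both ONX-0914 libraries lie below all control libraries in Gria1, Gria2 and Grik4 and above them in Gria4; genes differ in length, so heights of different genes are not compared here.

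The comparison of ONX-0914-treated with control mice covers the inhibitor together with its vehicle and the injections, since control mice received no injection. In both ONX-0914 libraries, Gria1 and Gria2, the pair of the main hippocampal AMPA receptor, and Grik4, a kainate subunit of CA3 and dentate gyrus cells, were below every control and DMSO library, while Gria4 was above every one. None of the 9 genes passed an FDR (Benjamini–Hochberg adjusted p over all tested genes, edgeR's quasi-likelihood test) of 0.05, and 0.114% of the 13152 tested genes did. At an unadjusted p under 0.05, 3 of the 9 were lower and 1 was higher, beside 8.04% and 10.6% of all tested genes. Separation of the libraries was found in 3 of the 9 with ONX-0914 below control, beside 16.3% of the tested genes, and in 1 with ONX-0914 above control, beside 16.9%. The median Log2FC was −0.62 over the 4 AMPA subunits, 0.01 over the 5 kainate subunits and 0.05 over all tested genes.

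Gria1 (ENSMUSG00000020524) encodes GluA1, whose tail is phosphorylated during potentiation and which is added to synapses in an activity-dependent way. Its level was 1747, 1842 and 1676 CPM in control replicates 1 to 3, 1579.8 and 1374 CPM in DMSO replicates 2 and 3, and 494 and 664 CPM in ONX-0914 replicates 1 and 2. The ONX-0914 libraries were at 28.1% and 37.8% of the control mean, and the groups did not overlap. The Log2FC against control was −1.60 (SE 0.228, FDR = 0.0511, edgeR), just outside the threshold. Replicate 1 was low also in CA1, CA3 and dentate gyrus markers. In replicate 2, Gria1 was 1.40 below control on the log2 scale, while the CA1 sum was 0.17 above, the pan-neuronal sum 0.60 below and the excitatory neuron sum 0.25 below. Single markers of pyramidal cells were low in replicate 2 as well, such as Neurod6 at 192 CPM against 344 to 376 in control, and the part of the marker differences in the levels of Gria1, Gria2 and Grik4 was not tested. With the libraries scaled to the pan-neuronal list, the Log2FC of Gria1 was −1.19 (FDR = 0.0859, edgeR), that of Gria2 −0.62 and that of Grik4 −0.76, beside a median of 0.44 over all tested genes in that scaling.

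Gria2 (ENSMUSG00000033981) encodes GluA2, the subunit that sets calcium permeability after editing at the codon shown above. Gria2 was at 973, 909 and 880.0 CPM in control, 937 and 907 CPM with DMSO, and 359 and 534 CPM with ONX-0914. Control and DMSO libraries overlapped, and both ONX-0914 libraries were lower, at 39.0% and 58.0% of the control mean. The Log2FC was −1.04 (SE 0.222, FDR = 0.0991, edgeR). In replicate 2, Gria2 was 0.78 below the control mean on the log2 scale, in the library where Fibcd1, Pou3f1 and Neurod6 were also below control and Mpped1 and Wfs1 above it.

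Gria3 (ENSMUSG00000001986) encodes GluA3, which combines with GluA2. The 7 libraries held 130.3, 163 and 138 CPM in control, 141 and 122 CPM with DMSO, and 87.9 and 162 CPM with ONX-0914. DMSO replicate 3 and ONX-0914 replicate 1 were below the control range and ONX-0914 replicate 2 was inside it, and the Log2FC of −0.20 had an FDR of 0.698 (edgeR). Scaled to the pan-neuronal list the Log2FC was 0.25, so its direction depended on the scaling.

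Gria4 (ENSMUSG00000025892) encodes GluA4, known from parvalbumin interneurons and thalamic cells. Its level was 45.8, 44.5 and 42.0 CPM in control, 45.7 and 33.4 CPM with DMSO, and 102 and 60.7 CPM with ONX-0914. Both ONX-0914 libraries were highest, at 232% and 138% of the control mean, with a Log2FC of 0.88 (SE 0.248, FDR = 0.147, edgeR). The summed interneuron markers were above control in both libraries, at 1420.3 and 1019 CPM against 791 to 832, but 4 and 6 of the 12 genes were above control and 5 were below it in each. Pvalb, the gene of parvalbumin, was at 354 CPM in replicate 1 and 53.6 CPM in replicate 2, against 111 to 135 in control. The thalamus and midbrain sum was above control in replicate 1. The part of these differences in the level of Gria4 was not tested.

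**Figure D2:**
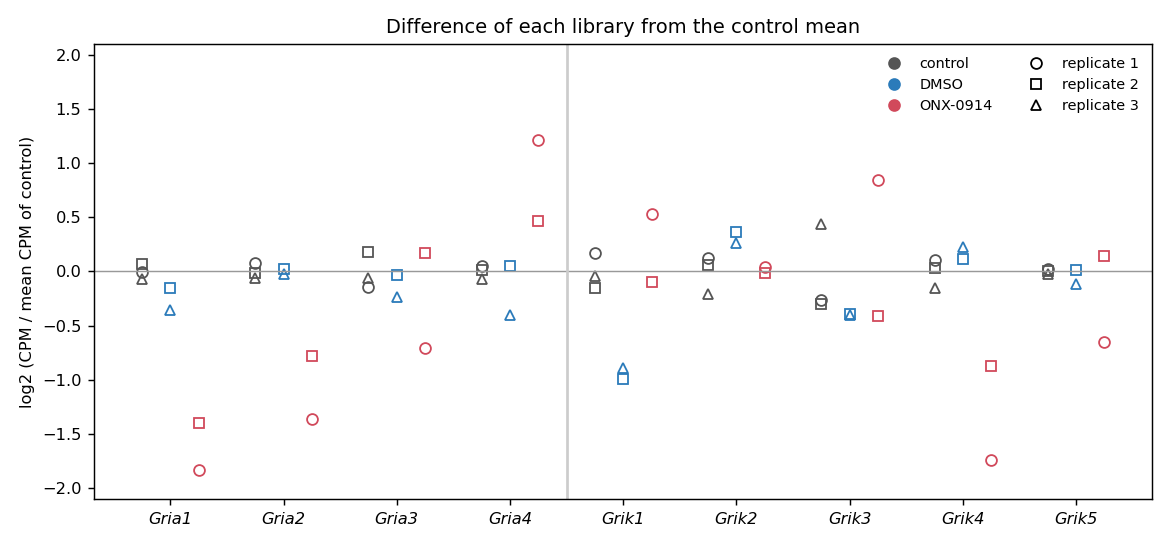
Log2 of the level of each subunit gene in each library over the mean of the 3 control libraries, so that 0 is the control mean; colours are groups and symbols replicate numbers. Gria1 lies at −1.83 and −1.40 and Gria2 at −1.36 and −0.78 in ONX-0914 replicates 1 and 2, while Grik3 has one ONX-0914 library on each side of 0 and Grik1 is low in both DMSO libraries.

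Among the kainate subunits, both ONX-0914 libraries lay on one side of control only in Grik4. Grik4 (ENSMUSG00000032017) encodes GluK4, a high-affinity partner subunit. It was at 66.0, 62.7 and 55.1 CPM in control, 66.5 and 71.4 CPM with DMSO, and 18.3 and 33.6 CPM with ONX-0914. The ONX-0914 libraries were at 29.8% and 54.8% of the control mean, and the Log2FC was −1.21 (SE 0.262, FDR = 0.101, edgeR). It rested on 73 counts in replicate 1 of ONX-0914, fewer than the 186 to 510 elsewhere. In replicate 2, where Grik4 was 0.87 below control on the log2 scale, the CA3 sum was within the control range with 2 of 8 genes below it, and the dentate gyrus sum was within the range with 6 of 10 genes below it. Trpc6 of the dentate gyrus list, for example, had 9.74 CPM there against 16.7 to 21.7 in control.

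Grik5 (ENSMUSG00000003378), the gene of the partner subunit GluK5, was the most abundant kainate gene. It held 211, 208 and 204 CPM in control, 209 and 191 CPM with DMSO, and 132 and 229 CPM with ONX-0914, so the treated libraries lay on both sides of control. Its Log2FC of −0.20 had an FDR of 0.662 (edgeR) and was 0.25 after pan-neuronal scaling.

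Grik2 (ENSMUSG00000056073) encodes GluK2, the main channel-forming kainate subunit of pyramidal cells and the third gene edited at the Q/R site. Its libraries held 53.2, 50.8 and 42.2 CPM in control, 62.8 and 58.6 CPM with DMSO and 50.1 and 48.3 CPM with ONX-0914. The ONX-0914 libraries were inside the control range, and the Log2FC of 0.01 (SE 0.174, FDR = 0.974, edgeR) changed sign with RLE size factors.

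Grik1 (ENSMUSG00000022935) and Grik3 (ENSMUSG00000001985) encode the channel-forming subunits GluK1, known from interneurons, and GluK3, which responds only to high glutamate. Grik1 was at 15.6, 12.5 and 13.4 CPM in control, 6.95 and 7.46 CPM with DMSO, and 20 and 13 CPM with ONX-0914, from 21 to 197 counts per library. Grik3 was at 65.3, 63.5 and 106 CPM in control, 59.8 and 59.4 CPM with DMSO, and 141 and 58.9 CPM with ONX-0914. In both genes the ONX-0914 libraries reached above and into or below the control range. The Log2FC was 0.23 (SE 0.265) for Grik1 and 0.34 (SE 0.368) for Grik3, with FDR values of 0.657 and 0.634 (edgeR).

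The lower levels of Gria1, Gria2 and Grik4 and the higher level of Gria4 kept their direction in all 22 alternative settings. Their size and their side of the threshold changed. Against control, the Log2FC ranged from −1.83 to −1.19 for Gria1 and −1.36 to −0.62 for Gria2. For Grik4 it ranged from −1.74 to −0.76, and for Gria4 from 0.45 to 1.21. Gria1, Gria2 and Grik4 passed an FDR of 0.05 with DESeq2, beside 3.01% of the genes, with edgeR's likelihood-ratio test, beside 4.21%, and without a filter on low counts, beside 2.15%. With limma voom, Gria1 alone passed, beside 0.137%. Leaving out a single ONX-0914 library moved the calls most, since a lone library adds nothing to the estimate of the spread. Without replicate 1, these 3 and Gria4 were called, with Log2FC values of −1.41 for Gria1, −0.79 for Gria2, −0.87 for Grik4 and 0.45 for Gria4, beside 51.2% of all genes. Without replicate 2, 7 of the 9 were called, beside 19% of all genes, and the same 4 values were −1.83, −1.36, −1.74 and 1.21.

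When ONX-0914-treated mice were set against control and DMSO-treated mice together, 1 of the 9 genes was called. Against the mean of the 2 groups, the Log2FC of Gria1 was −1.47 (SE 0.215, FDR = 0.0354, edgeR), and 0.988% of the tested genes passed. Grik4 (Log2FC −1.30, FDR = 0.0603), Gria2 (−1.04, FDR = 0.0633) and Gria4 (0.95, FDR = 0.0880) did not pass. Gria1 lost the call when any single control or DMSO library was left out. Grik1 had a Log2FC of 0.70 there, with an FDR of 0.176.

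DMSO-treated mice were compared with control mice for the effect of the injected vehicle, with the same control libraries as above. None of the 9 genes passed (edgeR, 0.0152% of all tested genes), and 1 of 9 had an unadjusted p under 0.05, beside 2.65% of all. This gene was Grik1, the lowest of the 9 per kilobase, in which both DMSO libraries were at 50.2% and 53.9% of the control mean. Its Log2FC was −0.94 (SE 0.304, FDR = 1, edgeR), based on 26 and 21 counts in the DMSO libraries and 44 to 49 in control. Neither library overlapped control in Gria1, Grik1 and Grik3, which were lower, or in Grik2 and Grik4, which were higher, beside 15% of the tested genes below and 15.7% above. Of these, Gria1 had a Log2FC of −0.25, Grik3 −0.40, Grik2 0.32 and Grik4 0.17. DESeq2 and the likelihood-ratio test also called none of the 9, beside 0.0684% and 0.114% of all tested genes.

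The comparison of ONX-0914-treated with DMSO-treated mice sets the compound against its vehicle. None of the 9 genes passed the threshold (edgeR, 0.0456% of all tested genes). Unadjusted p-values under 0.05 were obtained for Gria1, Gria2 and Grik4, all lower, and for Gria4 and Grik1, both higher, beside 6.65% and 8.07% of all tested genes. The Log2FC was −1.35 (SE 0.240, FDR = 0.101, edgeR) for Gria1, −1.04 (FDR = 0.155) for Gria2 and −1.38 (FDR = 0.126) for Grik4. Gria4 had a Log2FC of 1.03 (FDR = 0.200) and Grik1 one of 1.17 (FDR = 0.199). The ONX-0914 libraries of Grik1 were close to control, and it was the DMSO libraries that lay apart. Grik2 was below both DMSO libraries with a Log2FC of −0.30 (FDR = 0.455), and Gria3, Grik3 and Grik5 overlapped with DMSO. The libraries thus separated in 4 of the 9 with ONX-0914 below DMSO and in 2 above it, beside 19.7% and 20.8% of all tested genes. Called were 3 of the 9 with DESeq2, 3 with the likelihood-ratio test and 3 without a filter on low counts, beside 1.81%, 2.5% and 1.11% of the genes. Without ONX-0914 replicate 1 or 2, 5 or 8 of the 9 were called, beside 46% or 17.1%.

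The composition of the AMPA receptor transcripts was computed as each gene's share of the family per kilobase of exon, which does not depend on how libraries are scaled. The share of Gria1 was 77.7%, 78.8% and 78.2% in control, 76.2% and 74.9% with DMSO, and 62.9% and 64.5% with ONX-0914. Both ONX-0914 libraries were below all others, and the mean difference from control was −14.5 percentage points. A two-sided exact permutation test gave p = 0.2 against control and p = 0.0952 against the 5 other libraries, the smallest values these numbers of libraries allow. Without ONX-0914 replicate 1 or 2 the difference was −13.7 or −15.3 points. The part of the marker differences in this share was not tested. By raw counts, Gria1 took 60.3% of the AMPA counts in control replicate 1 (95% Wilson interval 59.3% to 61.4%) and 46.7% in ONX-0914 replicate 2 (46.1% to 47.4%), intervals that cover counting error only.

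The other AMPA genes differed in their shares. Gria4 took 1.95%, 1.82% and 1.88% in control, 2.11% and 1.75% with DMSO, and 12.5% and 5.65% with ONX-0914. For Gria3 the shares were 3.55%, 4.28% and 3.95% in control, 4.16% and 4.09% with DMSO, and 6.87% and 9.66% with ONX-0914. Gria2 took 16.8%, 15.1% and 16% in control, 17.6% and 19.2% with DMSO, and 17.8% and 20.2% with ONX-0914. Both treated groups were above control in Gria2 and overlapped each other. The ratio of Gria1 to Gria2 counts was 1.80 to 2.03 in control, 1.51 and 1.69 with DMSO, and 1.38 and 1.24 with ONX-0914, so Gria1 was further below control than Gria2 in both ONX-0914 libraries.

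**Figure D3:**
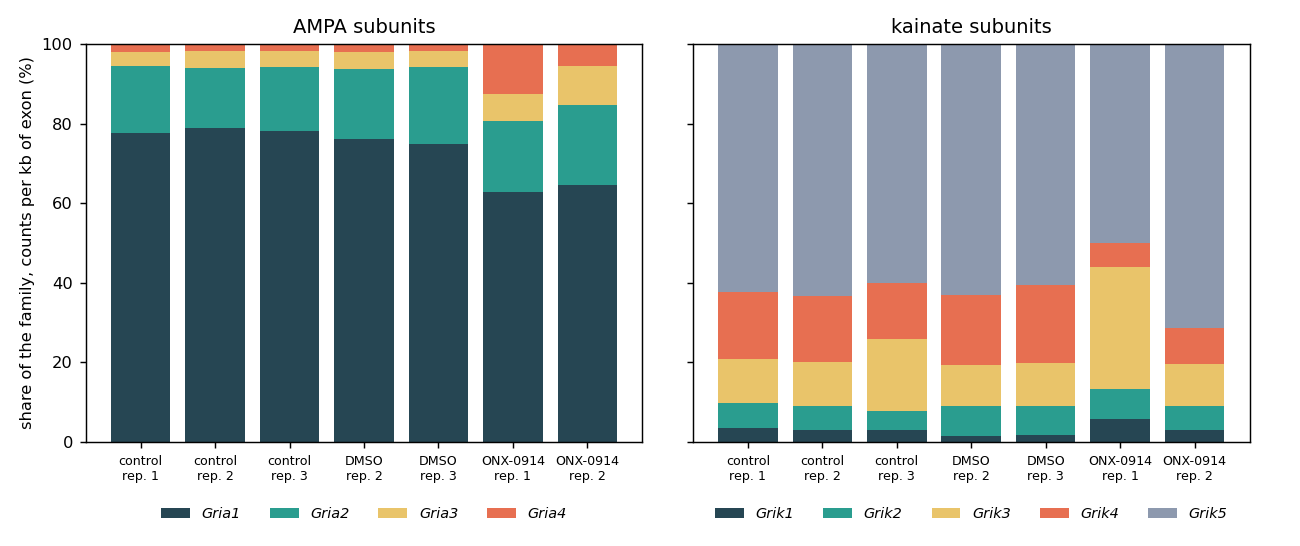
Stacked bars of the share of each gene in the AMPA family (left) and the kainate family (right), in percent of the counts per kilobase of exon of the family, 1 bar per library. In both ONX-0914 libraries Gria1 takes 62.9% and 64.5% of the AMPA family, and in the kainate family the share of Grik4 is 6.0% and 9.06%.

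In the kainate family, the summed level moved less than in the AMPA family. Summed over the 4 AMPA genes, the libraries held 2736 to 2959 CPM in control, 2437 and 2703 CPM with DMSO, and 1043 and 1421 CPM with ONX-0914. The 5 kainate genes summed to 398 to 421 CPM in control, 388 and 405 CPM with DMSO, and 362 and 383 CPM with ONX-0914. The ratio of AMPA to kainate counts was therefore 6.5 to 7.44 in control, 6.28 and 6.67 with DMSO, and 2.88 and 3.71 with ONX-0914. Within the kainate family, Grik4 took 14.1% to 16.9% per kilobase in control, 17.4% and 19.6% with DMSO, and 6.0% and 9.06% with ONX-0914. Grik5 took 50.0% in ONX-0914 replicate 1 and 71.4% in replicate 2, on both sides of the 60.0% to 63.4% of control, and Grik3 took 30.7% and 10.6%.

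**Figure D4:**
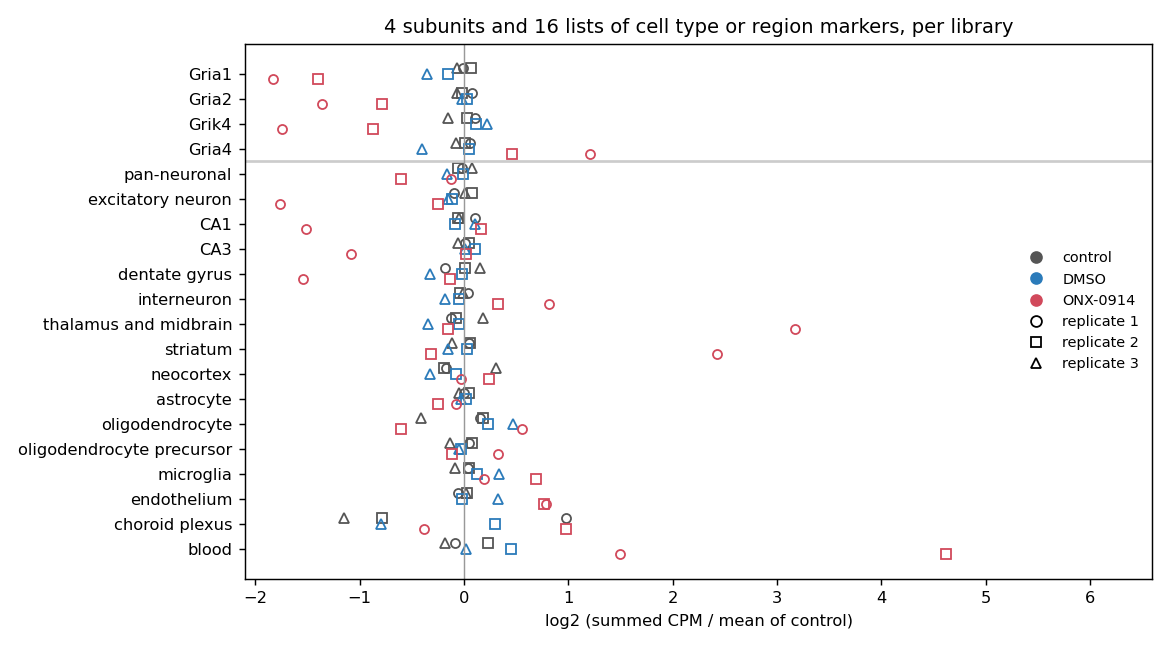
Log2 of the level in each library over the control mean for 4 subunit genes (top) and for the summed CPM of 16 marker lists, with colours for groups and symbols for replicate numbers. ONX-0914 replicate 1 is low in hippocampal and high in thalamus and striatum markers. Replicate 2 has sums near control in these, made of genes above and below it. The blood sum is above control in both ONX-0914 libraries and highest in replicate 2, and Gria1, Gria2 and Grik4 are below control in both.

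The remaining marker lists gave the following summed levels in CPM. The endothelium sum was above control in both ONX-0914 libraries, at 311 and 309 against 174 to 185, with all 8 genes above control in each. Microglia markers were at 368 and 521 against 303 to 332 in control and 350 to 407 with DMSO. Neocortex markers were at 502 and 606, against 456, 448 and 632 in control replicates 1 to 3. Of these 10 genes, 4 were above all control libraries and 5 below them in ONX-0914 replicate 1. In ONX-0914 replicate 2, 6 were above and 1 was below. Oligodendrocyte markers were at 10518 and 4682 against 5378 to 8085, oligodendrocyte precursor markers at 393 and 290 against 285 to 330, and astrocyte markers at 6338 and 5639 against 6464 to 6911. Choroid plexus markers were at 74.7 and 192 against 43.9 to 191 in control.

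The partner genes of the receptors were described from 10 lists by role, of 42 genes in all. None of the 40 that were tested passed an FDR of 0.05 in any of the 3 comparisons with edgeR's quasi-likelihood test. DESeq2 called 5 of them against control, Nptx1 (FDR = 3.61e-09), Adarb1 (0.00941), Cacng8 (0.0110), Shisa9 (0.0230) and Cacng7 (0.0239), beside 3.01% of all genes, and 3 against DMSO, Nptx1, Adarb1 and Grip2, beside 1.81%. Against control, 7 were higher and 7 lower with ONX-0914 at an unadjusted p under 0.05, beside 10.6% and 8.04% of all tested genes. Both ONX-0914 libraries lay above control in 9 and below it in 7 of the tested genes, beside 16.9% and 16.3% of all. The median Log2FC of the 40 was 0.25, against 0.05 over all tested genes. Shisa8 and Prrt2 had too few counts to be tested.

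Of the synaptic organizers, 3 of 5 genes were below control in both ONX-0914 libraries, beside 16.3% of all tested genes, and the others overlapped with control. Nptx1 encodes neuronal pentraxin 1, a secreted protein that gathers AMPA receptors at synapses. Its level was 1444, 1530.0 and 1529 CPM in control, 1574 and 1489 CPM with DMSO, and 312 and 526 CPM with ONX-0914, with a Log2FC of −1.84 (SE 0.266, FDR = 0.0511, edgeR). Nptxr, the membrane-bound pentraxin, had 1010.0 to 1224 CPM in control and 707 and 769 CPM with ONX-0914 (Log2FC −0.60). C1ql2, a ligand that mossy fibres secrete to gather kainate receptors and also a gene of the dentate gyrus list, had 44.7 to 55.7 CPM in control and 17.3 and 35.7 CPM with ONX-0914 (Log2FC −0.90).

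Among the TARPs, the transmembrane partners that traffic and gate AMPA receptors, Cacng8 and Cacng7 went opposite ways. Cacng8, the gene of the hippocampal TARP γ-8, had 146 to 164 CPM in control and 45.3 and 90.9 CPM with ONX-0914. The DMSO libraries, at 143 and 111 CPM, were also below control. Its Log2FC was −1.19 (SE 0.289, FDR = 0.124, edgeR) against control and −0.89 (FDR = 0.267, edgeR) against DMSO. Cacng7 had 74.1 to 79.3 CPM in control and 136 and 127 CPM with ONX-0914, a Log2FC of 0.79 (SE 0.152, FDR = 0.0759, edgeR). Cacng2, the gene of stargazin, had 54.3 to 67.1 CPM in control, 68.1 and 68.2 CPM with DMSO, and 84.4 and 67.3 CPM with ONX-0914. It overlapped with DMSO, and its Log2FC was 0.32 against control and 0.15 against DMSO. Of the other auxiliary proteins, Shisa9 (CKAMP44) had 18.5 to 24.1 CPM in control and 45.1 and 43.5 CPM with ONX-0914, a Log2FC of 1.10 (SE 0.223, FDR = 0.0865, edgeR). The Log2FC was 0.32 for the cornichon gene Cnih3, 0.77 for Neto2, a kainate receptor partner, and 1.97 for Vwc2, a secreted protein. Vwc2 had 1.63 to 3.02 CPM in control, 5.08 and 4.26 CPM with DMSO and 13.8 and 4.67 CPM with ONX-0914, so it overlapped with DMSO, against which its Log2FC was 0.85.

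Frrs1l and Cpt1c, which assist the assembly of AMPA receptors in the endoplasmic reticulum, were both below control with ONX-0914. Frrs1l had 564 to 573 CPM in control and 302 and 401 CPM with ONX-0914, but DMSO replicate 3 with 384 CPM lay between the latter. Its Log2FC was −0.70 against control and −0.27 against DMSO, and that of Cpt1c was −0.65 and −0.48. Of the proteins that bind subunit tails, Akap5, an anchor for kinases at GluA1, had a Log2FC of −0.60 against control and −0.31 against DMSO. Its DMSO libraries, at 83.3 and 94.9 CPM, were also below the 101 to 115 CPM of control. Grip2, a scaffold of GluA2 and GluA3, had 7.68 to 10.3 CPM in control and 25.3 and 15.7 CPM with ONX-0914. With DMSO it had 5.88 and 4.62 CPM, from 22 and 13 counts, below every control library. Its Log2FC was 1.22 against control and 1.92 against DMSO. Dlg1, the gene of SAP97, had a Log2FC of 0.40 against control.

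**Figure D5:**
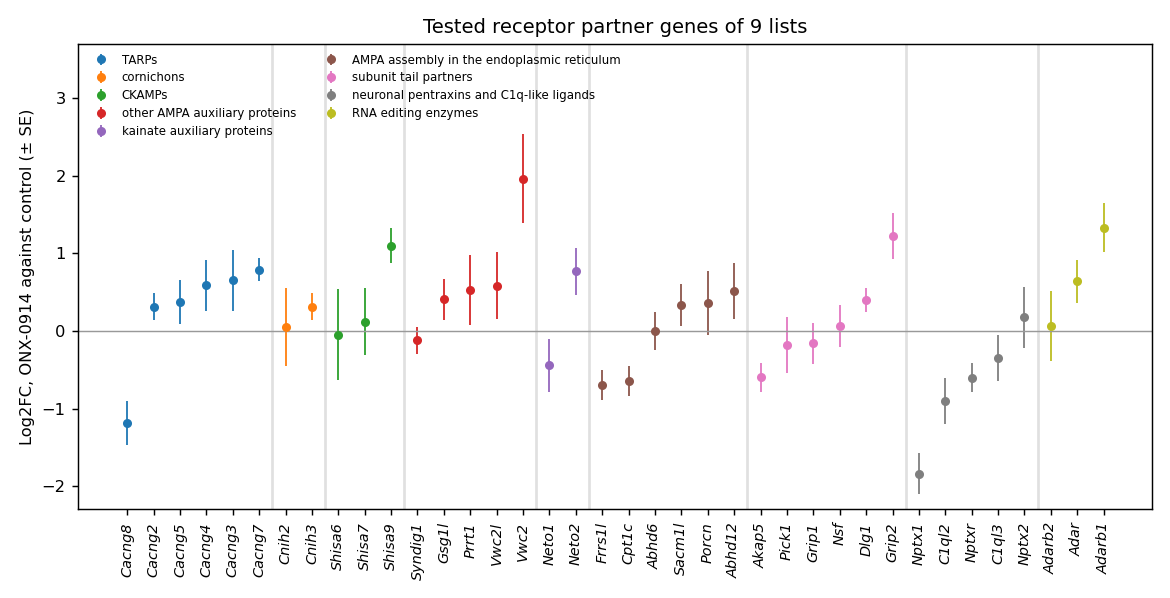
Log2FC of ONX-0914 treatment over control with its standard error for the tested partner genes of 9 of the 10 lists, grouped and coloured by list and sorted within each list. Nptx1 at −1.84 and Cacng8 at −1.19 are the lowest, Vwc2 at 1.97 and Adarb1 at 1.33 the highest, and none passed an FDR of 0.05 in edgeR's quasi-likelihood test.

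Adarb1, the gene of the enzyme that edits the Q/R codons of Gria2, Grik1 and Grik2 printed above, was higher in both ONX-0914 libraries than in every other library. It had 145, 148 and 163 CPM in control, 130.4 and 127 CPM with DMSO, and 544 and 223 CPM with ONX-0914. The Log2FC was 1.33 (SE 0.320, FDR = 0.121, edgeR) against control and 1.58 (FDR = 0.158) against DMSO. Replicate 1, in which it was highest, was the library with high thalamus and striatum sums, and their part in the result was not tested. In replicate 2, where those sums were below control, it was above the control range as well.

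The genes with levels most like those of Gria1 over the 7 libraries were Kbtbd11, Inka2 and Fam131a. Likeness was the root-mean-square difference of log2 CPM after each gene was centred on its own mean, and it was 0.136, 0.136 and 0.157, while the standard deviation of Gria1 itself was 0.760. For Gria2 these genes were Plppr4, Cdh11 and Zeb2, with differences of 0.0409, 0.0859 and 0.101 against a standard deviation of 0.550. The nearest gene lay at 0.0455 for Grik5, 0.0525 for Grik2, 0.0693 for Gria3, 0.102 for Grik3, 0.111 for Gria4, 0.115 for Grik4 and 0.119 for Grik1. The points are the same 7 libraries for every gene, so these values are a description.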

How the data were processed

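The authors deposited whole-number read counts per gene, 1 file per library, without normalization. The submitters' processing notes name Trimmomatic 0.39, STAR 2.7.3a, featureCounts 2.00 and the build GRCm39, while the annotation and the strand setting are not given in the sources used here. Between 89.6% and 91.4% of the reads in each file fell on a gene, and the rest stayed out of library sizes and tests. No column of another sample was found (0 columns not used). Symbols, exon lengths and the Q/R codon came from GENCODE M21 on GRCm38, so the codon positions are those of GRCm38 and not of the counting. Gria2, Gria3, Gria4 and Grik4 share 19 to 111 exon bases with small RNA genes that had 0 counts. Protein sequences were not used here.

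The analysis of these counts used edgeR 4.0.16 in R 4.3.3, with filterByExpr, TMM scaling, and glmQLFit and glmQLFTest on all 7 libraries with a mean per group, Benjamini–Hochberg adjustment over 13152 genes and a threshold of 0.05. CPM are those of the TMM-scaled library sizes. Log2FC is the coefficient of this fit (prior count 0.125), and its standard error was derived from the F statistic. The steps were tested on simulated counts. Alternatives were RLE and total-count scaling, scaling to pan-neuronal genes, other filters, DESeq2 1.42.0, limma voom (limma 3.58.1), other forms of the edgeR fit, thinning of ONX-0914 replicate 2, the replicate number as a block and leaving out each library. After seeing the data, the likelihood-ratio test, corrections for gene length and GC content (each known for 99.9% of the tested genes) and the longest transcript length were added.

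The members, the partner and marker lists and the tests were chosen with earlier results of these data known. Named were all members, partner genes past the threshold, and in each list up to 3 genes per direction, by absolute Log2FC, with both ONX-0914 libraries outside the control range; Shisa8 and Prrt2 were named as untested. The genes of 1 list are counted in the totals, but their own values are not reported here. Likeness was computed on log2 CPM (prior count 2, with 0.5 as the alternative, which gave the same 3 genes for each member), and the 3 nearest genes were named for Gria1 and Gria2.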

Additional observations from a re-analysis of the deposited data

How the results depend on the processing

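Over 27 Log2FC values (9 genes, 3 comparisons) and 22 alternatives each, 518 of 594 kept their direction and side of the threshold, 45 newly passed it and 31 reversed. No gene was called between DMSO and control in any of them. The numbers called with ONX-0914 against control were 3 without a filter on low counts, 3 with DESeq2, 3 with the likelihood-ratio test, and 1 each with limma voom, the earlier quasi-likelihood fit and the gene length correction. Against DMSO they were 3 without a filter, 3 with DESeq2 and 3 with the likelihood-ratio test. Leaving out 1 library gave 0 to 7 against control, 0 to 8 against DMSO and 0 to 8 against the mean of both groups. The calls rose without ONX-0914 replicate 1 (4, 5 and 4) and without ONX-0914 replicate 2 (7, 8 and 8), where the lone ONX-0914 library is assumed to vary like the other groups, and no call against the mean of both groups was left without any single control or DMSO library (0). Gria1 against control passed without a filter (Log2FC −1.58, FDR = 0.000289), with DESeq2 (−1.61, FDR = 1.95e-09), limma voom (−1.63, FDR = 0.0415), the earlier fit (−1.60, FDR = 0.0497), the likelihood-ratio test (−1.60, FDR = 1.15e-06) and the length correction (−1.62, FDR = 0.0458), and ranged from −1.83 to −1.41 when 1 library was left out, with FDR values over all alternatives from 3.92e-10 to 0.355. The Gria1 share difference ranged from −15.3 to −13.7 points when 1 library was left out. The ratio of Gria1 to Gria2 per kilobase in control was 4.91 and became 3.57 with the longest coding transcript, a change that comes from the lengths. The number of all genes called against control was 15, and it was 578 without a filter, 388 with DESeq2, 554 with the likelihood-ratio test, 37 with pan-neuronal scaling, 7024 without ONX-0914 replicate 1 and 2594 without ONX-0914 replicate 2. The median Log2FC of all genes was 0.05, and it was 0.19 with total counts and 0.44 with pan-neuronal scaling.

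No value with a changed sign passed the threshold, and the cause of the changes was not tested. Pan-neuronal scaling turned Gria3 (0.25) and Grik5 (0.25) against control, Grik5 (0.025) in DMSO against control, and Gria3 (0.31), Grik2 (0.00077) and Grik5 (0.22) against DMSO. Total counts turned Gria3 against DMSO (0.077). Grik2 against control turned with RLE (−8.8e-06), thinning (−0.0053), the length correction (−0.025) and the GC correction (−0.088). Gria2 in DMSO against control turned without a filter (−0.0073) and with the GC correction (−0.052). When 1 library was left out, the values against control ranged from −0.72 to 0.16 for Gria3, −0.093 to 0.54 for Grik1, −0.080 to 0.080 for Grik2, −0.43 to 0.84 for Grik3 and −0.65 to 0.13 for Grik5. In DMSO against control the ranges were −0.029 to 0.043 for Gria2, −0.40 to 0.050 for Gria4 and −0.12 to 0.0072 for Grik5, and against DMSO they were −0.59 to 0.29 for Gria3, −0.027 to 1.24 for Grik3 and −0.60 to 0.18 for Grik5. Against control and against DMSO, the ends of the ranges for Gria3, Grik1, Grik3 and Grik5 came from leaving out ONX-0914 replicate 1 or 2.

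Replicate numbers were shared between groups, and the deviations of libraries with the same number had correlations of −0.096 to 0.064 over genes. In the DMSO and ONX-0914 groups the deviations of the libraries are mirror images of each other. These few values therefore cannot tell whether the numbers pair libraries, and the labels do not say. With the replicate number as a block, 0 members and 1 gene were called against control, and the Log2FC of Gria1 was −1.64 (FDR = 0.171, edgeR). The block turned Grik2 against control (−0.057), Gria2 in DMSO against control (−0.049) and Gria3 against DMSO (0.015).

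With 2 libraries in each treated group, the spread under treatment rests on 1 difference per gene. Grik1 had the fewest counts of the 9 genes, 21 to 197 per library.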
